A study of Mus musculus with 8 samples.

Results

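The genes described here had a clear signal in control embryonic stem cells (ESCs) and lost at least 1 log2 unit of it after knock-down of Rad21, a gene for one of the proteins that form the cohesin ring. Each gene was represented by its brightest probe set with a single gene symbol. Members had a mean of 7 or more on the log2 scale over the 4 control arrays, a mean difference of -1 or less, and a highest knock-down value below the lowest control value. Of 18193 genes, 7838 reached the control mean, and 147 of those (1.88%) met all 3 thresholds. A group of 22 genes was left out by name, among them Rad21 itself and the pluripotency factors Esrrb, Klf4, Tbx3, Prdm14, Nr0b1 and Tfcp2l1, which left 125 members. Members were thus selected on the array values of both groups, and the size of their fall is a description that carries no test.

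All 8 arrays held RNA of R1/E cells, a mouse ESC line that the study kept without feeder cells on gelatin, with serum and leukemia inhibitory factor. Per the labels, 80000 cells per well were transfected with 800 ng of esiRNA, a mixture of short interfering RNAs cut from long double-stranded RNA by an enzyme, and RNA was taken after 48 h. The knock-down group received esiRNA against Rad21 (n = 4) and the control group received esiRNA against luciferase (Luc, n = 4), a gene that mouse cells lack. Both groups were therefore transfected, and both came from a single cell line.

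Rad21 gave 13.62, 13.42, 13.83 and 13.79 on the Luc arrays and 11.69, 11.75, 12.37 and 12.52 on the knock-down arrays, so 33.4% of its signal was left. Knock-down replicates 1 and 2 held less Rad21 signal than replicates 3 and 4. The second principal component of the arrays, with 11.6% of the variance, separated the same replicate numbers in both groups, and the labels name no batch. All 10 ESC markers had Luc means from 11.74 to 15.90. Of these, 5 were called lower, Nanog (-0.83) and Pou5f1 (-0.55) among them, and 1 higher, and their summed level was 140.08 to 140.78 on the Luc arrays and 138.29 to 138.74 on the knock-down arrays. In contrast, 7 of 9 measured fibroblast markers lay below 4, Col1a1 at 2.77 among them. The summed level of 10 primitive endoderm markers was 39.57 to 40.28 on the Luc arrays and 47.15 to 50.50 on the knock-down arrays, with 3 of the 10 called higher, while Gata4, Gata6 and Sox17 stayed near the floor. For 10 trophoblast markers the sums were 59.52 to 62.72 and 63.73 to 65.90, with 2 called higher and 1 lower. The part of these marker shifts in the falls described below was not tested. In bulk RNA, fewer cells of a type and less RNA per cell cannot be told apart.

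Cohesin holds sister chromatids together until cell division and also shapes loops of DNA between distant sites, in part together with the DNA-binding protein CTCF. Embryonic stem cells transcribe many genes at a low or moderate level that become prominent only in later tissues, such as muscle, epithelium or brain. A list of genes that lose signal can thus hold regulators of the stem cell state beside genes best known from other cell types.

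The median member changed by -1.32, with quartiles of -1.64 and -1.14, which left 40.1% of the Luc signal. The median change over all genes with a Luc mean of 7 or more was -0.06. The largest fall was that of Lrrc31 (-2.98) and 6 members changed by -2 or less, namely Lrrc31, Hopx, Ceacam1, Gabbr1, Mymx and Lrrc34. A change of -1.5 or less was found for 44 members, and 43 members lay above -1.2, close to the threshold. The array medians of the members were 8.61, 8.52, 8.53 and 8.51 in the Luc group and 7.03, 7.07, 7.23 and 7.27 in the knock-down group. On the brightest probe sets, no member was extinguished to the array floor. The lowest knock-down mean there was 5.23 (Zmat4) and 0 of 125 lay under 4. Some dimmer probe sets of members did fall below 4. A dimmer Ceacam1 probe set went from 5.78 to 3.08, and a dimmer Sec14l1 probe set from 4.44 to 2.61. The moderated test of limma called 123 of the 125 lower at a Benjamini-Hochberg adjusted p under 0.05, beside 26.0% of all genes with a Luc mean of 7 or more and 12.6% of all genes. Because this contrast chose the members, nothing is read from that count. Chac1 and Egln3, whose replicates were far apart, were the 2 members not called. With replicates 1 and 2 and replicates 3 and 4 as a block, Chac1 was called too and 124 members were called lower. For scale, 114 genes with a Luc mean of 7 or more rose by at least 1 log2 unit without overlap.

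**Figure D1:**
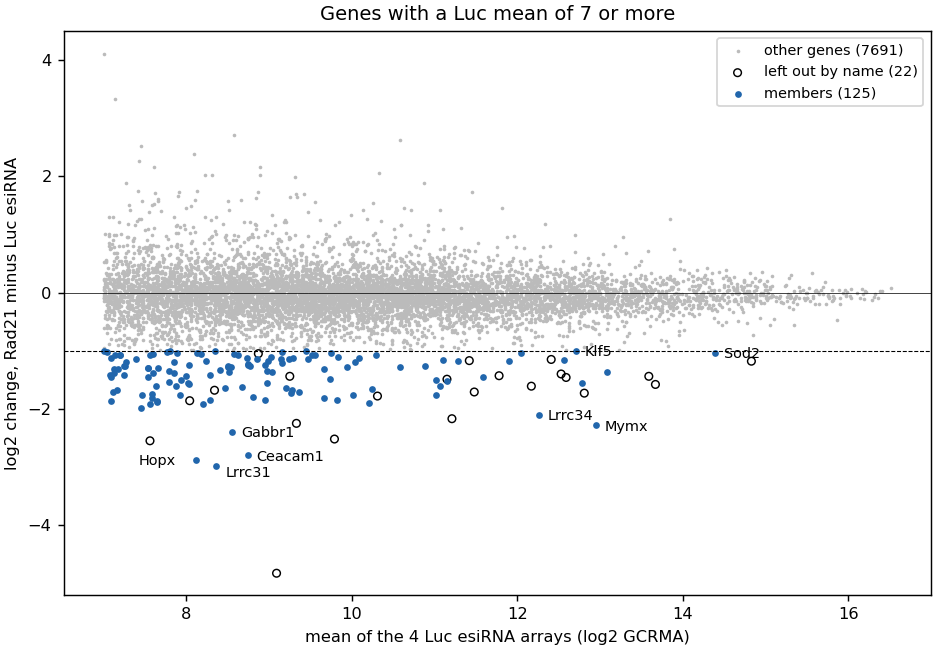
Log2 change (Rad21 minus Luc esiRNA, vertical axis) against the mean of the 4 Luc arrays (log2 GCRMA, horizontal axis) for all 7838 genes with a Luc mean of 7 or more. Blue points are the 125 members, open circles the 22 genes left out by name, grey points the other genes, and the dashed line marks a change of -1. The members reach down to -2.98 and have Luc means from 7.01 to 14.39. Their median Luc mean is 8.54, beside 9.83 for all 7838 genes, which reach 16.52.

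The thresholds cut through a continuous range of values. Just inside the Luc threshold were Gm17586 (7.007), Gna15 (7.035) and Qprt (7.080), and just outside it Zbtb12 (6.983), Cldn9 (6.933) and Slc11a1 (6.909). Slc11a1 changed by -3.171, more than any member. Just inside the threshold of change were Klf5 (-1.0), Blvra (-1.003) and Bcl2l11 (-1.006), and just outside it Gstm1 (-0.999), Rab29 (-0.997) and Sox15 (-0.997). The narrowest gaps between the groups were those of Mex3b (0.087), Egln3 (0.166) and Chac1 (0.179), and Bhlhe40 was the only gene kept out by overlap alone (-0.265).

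The largest fall and the sixth largest came from near neighbours on chromosome 3. Lrrc31 and Lrrc34 encode proteins with leucine-rich repeats, a fold that usually binds other proteins. Lrrc31 gave 8.96, 8.45, 8.12 and 7.92 on the Luc arrays and 5.79, 5.80, 4.83 and 5.10 on the knock-down arrays, a change of -2.98 ± 0.30 (SE, n = 4 arrays per group). Lrrc34 was far brighter and much tighter, with 12.28, 12.33, 12.18 and 12.26 against 10.23, 10.20, 10.06 and 10.15 (-2.10 ± 0.05). Between them lies Lrriq4, another gene with leucine-rich repeats, which missed the Luc threshold with a mean of 6.65 and fell to 4.92 (-1.73 ± 0.16, limma adjusted p = 0.000492). Gpr160, an orphan G protein-coupled receptor a few genes further on, gave 6.89, 7.24, 7.53 and 7.01 against 5.87, 5.77, 5.78 and 5.95 (-1.32 ± 0.13). All 3 members were lower on each knock-down array than on any Luc array, as the selection required. The measured genes around them did not follow in 1 direction. Sec62, a component of protein import into the endoplasmic reticulum that lies between Lrrc31 and Gpr160, rose by 0.36 (adjusted p = 0.00495), and Skil, an inhibitor of Smad signalling, rose by 0.51 (adjusted p = 0.00199). Prkci, an atypical protein kinase C, fell by 0.51 (adjusted p = 0.000472), and Mynn changed by -0.19 (adjusted p = 0.166). Mecom, Actrt3 and Samd7 had Luc means under 3 and changed by no more than 0.07 in either direction.

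The promoters of these neighbours are shown because the 3 genes fell within 1 short stretch of chromosome 3 and yet differ in base composition. The 250 bases before each start site, from RefSeq on the mouse assembly GRCm38.p6, are printed 5′ to 3′ on the strand of the gene with every CpG in capitals. Lrrc34 is at chr3:30647819-30648068 on the minus strand, Lrrc31 at chr3:30699844-30700093 on the minus strand and Gpr160 at chr3:30855700-30855949 on the plus strand.
Lrrc34: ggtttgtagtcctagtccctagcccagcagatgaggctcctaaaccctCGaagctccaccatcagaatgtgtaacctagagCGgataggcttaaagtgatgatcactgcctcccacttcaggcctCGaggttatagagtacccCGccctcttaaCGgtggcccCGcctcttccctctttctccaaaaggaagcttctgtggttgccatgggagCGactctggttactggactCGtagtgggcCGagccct
Lrrc31: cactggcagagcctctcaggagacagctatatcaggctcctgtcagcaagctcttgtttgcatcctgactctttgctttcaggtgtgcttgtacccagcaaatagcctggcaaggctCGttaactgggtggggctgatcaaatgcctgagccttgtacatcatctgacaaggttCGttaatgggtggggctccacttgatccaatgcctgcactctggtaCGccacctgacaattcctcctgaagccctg
Gpr160: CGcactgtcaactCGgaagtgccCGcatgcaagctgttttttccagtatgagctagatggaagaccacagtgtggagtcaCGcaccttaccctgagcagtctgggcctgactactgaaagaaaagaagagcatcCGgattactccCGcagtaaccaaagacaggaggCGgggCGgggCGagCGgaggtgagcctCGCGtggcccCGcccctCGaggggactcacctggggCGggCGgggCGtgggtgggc
The stretch before Gpr160 holds 17 CpG, that before Lrrc34 9 and that before Lrrc31 3, so a promoter rich in CpG was not shared among them.

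**Figure D2:**
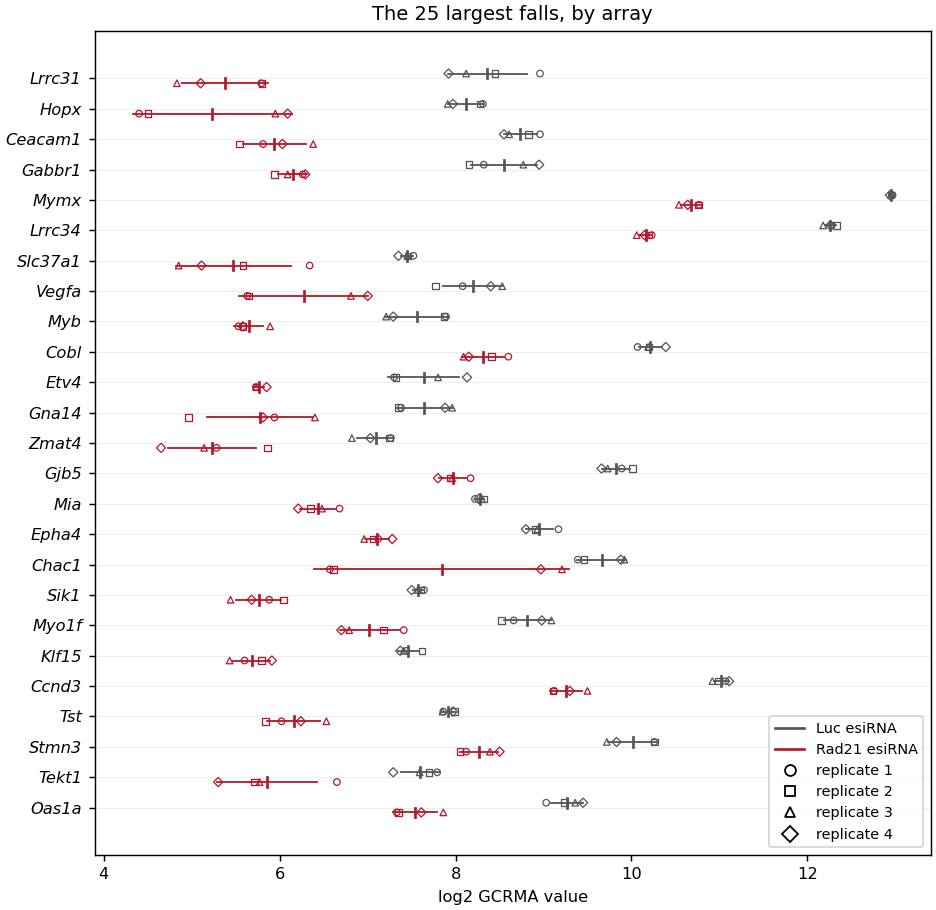
Log2 GCRMA values of the 25 members with the largest falls on each of the 4 Luc arrays (grey) and 4 Rad21 esiRNA arrays (red), with the mean as a vertical tick and a bar of 1 SD to each side. Symbols give the replicate number. The groups are apart for every gene, as the selection required, and the red points of Chac1, Hopx and Vegfa fall into replicates 1 and 2 against 3 and 4.

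Transcription factors and chromatin proteins made up 20 members, with a median change of -1.30 (-2.88 to -1.0). Hopx, an unusual homeodomain protein that does not itself bind DNA, gave 8.31, 8.28, 7.91 and 7.97 in the Luc group and 4.40, 4.5, 5.95 and 6.09 after knock-down, a change of -2.88 ± 0.42. Its knock-down values formed separate pairs with an SD of 0.91, whereas the SD of its Luc values was 0.21. Myb, a factor of blood progenitors, gave 7.89, 7.87, 7.21 and 7.29 against 5.53, 5.58, 5.89 and 5.58 (-1.92 ± 0.18). Etv4, an ETS factor that responds to FGF signalling, gave 7.30, 7.32, 7.80 and 8.13 against 5.73, 5.73, 5.73 and 5.85 (-1.88 ± 0.18). The knock-down arrays of Etv4 were almost equal, with an SD of 0.06, while the SD of its Luc arrays was 0.40. Zmat4, a zinc finger protein, gave 7.26, 7.25, 6.82 and 7.03 against 5.28, 5.86, 5.14 and 4.65 (-1.86 ± 0.24). Klf15, a Krüppel-like factor known from the control of amino acid and glucose metabolism, gave 7.44, 7.62, 7.41 and 7.37 against 5.60, 5.79, 5.43 and 5.91 (-1.77 ± 0.11). Klf5, the member of the same family with a role in ESC self-renewal, lay exactly at the limit with 12.73, 12.59, 12.79 and 12.72 against 11.53, 11.60, 11.93 and 11.76 (-1.0 ± 0.09).

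Several other members of this group are enzymes or partners that act on chromatin. Cdyl2, a chromodomain protein, changed from 11.06 ± 0.08 (SD, n = 4) to 9.47 ± 0.06, and Tet2, which oxidises methylated cytosine, from 11.15 ± 0.17 to 9.63 ± 0.13. A dimmer Tet2 probe set changed by -1.69. The histone demethylase gene Kdm6b changed by -1.15, the histone methyltransferase gene Kmt2c by -1.12, and Smarcd3, a subunit of the SWI/SNF remodelling complex, by -1.31. Among the factors of signalling pathways and lineages, Tcf15, a bHLH factor of paraxial mesoderm that is also expressed in ESCs, changed by -1.5, the cytokine-activated factor Stat6 by -1.28 and the germ cell determinant Prdm1 by -1.27. The bZIP factors Jdp2 and Atf5 changed by -1.41 and -1.04, the ETS factor Ets2 by -1.04 and Rfx2, a regulator of genes for cilia, by -1.27. The zinc finger genes Zfp59 (-1.07) and Zfp654 (-1.01) closed the group. Counted by gene symbol, the list of DNA-binding factors outside the zinc finger list had 156 genes with a Luc mean of 7 or more. Of these, 10 were members (6.41%), Hopx among them although it does not itself bind DNA. Beside this stood 2 of 214 zinc finger genes (0.935%) and 1.59% of all such genes. Over these 156 factors, 55 were called lower and 29 higher, beside 26.0% and 15.5% of all such genes, and their median change was -0.10. The list of other factors also contained 6 of the genes left out by name.

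Ligands, receptors and signal transducers were the most numerous group, with 24 members and a median change of -1.52. Of these, 23 were called lower, beside 26.0% of all genes with a Luc mean of 7 or more. Nothing is read from that count, since the same contrast chose the members. Among secreted proteins, Vegfa, the growth factor of blood vessels, gave 8.08, 7.77, 8.53 and 8.40 in the Luc group and 5.63, 5.65, 6.81 and 7.0 after knock-down (-1.92 ± 0.36). Mia, a small secreted protein first known from melanoma and cartilage, gave 8.22, 8.32, 8.30 and 8.26 against 6.68, 6.35, 6.48 and 6.21 (-1.85 ± 0.09). The knock-down arrays were widely spread for Vegfa, with an SD of 0.73, and closer together for Mia, with an SD of 0.20. Hbegf, a ligand of the EGF receptor, changed by -1.15 and Ltb, a lymphotoxin of the TNF family, by -1.03. F3, the tissue factor that starts blood clotting, changed by -1.5.

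Receptors fell to a similar degree. Gabbr1, a subunit of the metabotropic receptor for GABA, gave 8.32, 8.15, 8.77 and 8.95 on the Luc arrays and 6.26, 5.94, 6.09 and 6.29 on the knock-down arrays (-2.40 ± 0.19), the fourth largest change. Epha4, a receptor tyrosine kinase for ephrins, gave 9.17, 8.91, 8.93 and 8.80 against 7.12, 7.06, 6.96 and 7.28 (-1.85 ± 0.09), and its dimmer probe sets with a Luc mean of 7 or more changed by -2.04 and -2.23. Kit, the receptor for stem cell factor that marks germ and blood progenitors, gave 9.42, 9.08, 9.17 and 9.19 against 7.69, 7.51, 7.46 and 7.64 (-1.64 ± 0.08). The narrowest gap between the groups was 0.93 among these 4 receptors, in Gpr160. Of 59 receptor genes with a Luc mean of 7 or more, 4 were members (6.78%), 14 were called lower and 17 higher, beside 1.59%, 26.0% and 15.5% of all such genes.

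Inside the cell, the Gq-class alpha subunits Gna14 and Gna15 were both members. Gna14 gave 7.38, 7.35, 7.96 and 7.88 against 5.94, 4.96, 6.4 and 5.81 (-1.87 ± 0.31), and Gna15, at the lower limit of the Luc signal, changed by -1.02. Sik1, a salt-inducible kinase, gave 7.64, 7.60, 7.57 and 7.5 against 5.88, 6.04, 5.44 and 5.68 (-1.82 ± 0.12). Ccnd3, a D-type cyclin that partners the kinases of the G1 phase, gave 11.07, 10.99, 10.92 and 11.11 against 9.12, 9.11, 9.50 and 9.30 (-1.76 ± 0.09). The knock-down arrays were far apart for Gna14, with an SD of 0.60, and closer for Ccnd3, with an SD of 0.19. Mras, a small GTPase of the Ras family, changed from 10.24 ± 0.09 to 8.58 ± 0.05 (-1.66). The secreted kinase gene Pkdcc changed by -1.71 with widely spread Luc arrays of 7.83, 7.48, 6.67 and 6.46. Porcn, which attaches the lipid that Wnt proteins need for secretion, changed by -1.57, and Dact2, a modulator of Wnt and Nodal signalling, by -1.06. Bcl2l11, the cell death activator also called Bim, changed by -1.01, and 4 further probe sets of it changed by between -0.80 and -1.24. Egln3, an oxygen-dependent prolyl hydroxylase, and the exchange factor gene Mcf2 (-1.16), the kinase gene Dstyk (-1.08), the Ras exchange factor gene Kndc1 (-1.13), the phosphatase gene Ppm1j (-1.29) and the ubiquitin ligase gene Lnx1 (-1.54) completed the group.

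Adhesion and junction proteins were 7 members with a median change of -1.26. Ceacam1, a homophilic adhesion molecule of the immunoglobulin superfamily, gave 8.96, 8.83, 8.61 and 8.55 on the Luc arrays and 5.81, 5.54, 6.38 and 6.03 on the knock-down arrays (-2.80 ± 0.18). This probe set, like those of Myb and Stmn3, also contains probes that match other transcripts, as the ending of its name marks. Further Ceacam1 probe sets changed by -2.81 (Luc mean 8.21), -2.70 (5.78) and -1.07 (4.28), another by -0.37 (4.76), and those with Luc means under 3 by no more than 0.03. The upstream stretch of Ceacam1 is printed because a large fall came here from a start site with hardly any CpG (RefSeq, GRCm38.p6, chr7:25477626-25477875, minus strand, 5′ to 3′ on the strand of the gene, CpG in capitals).
Ceacam1: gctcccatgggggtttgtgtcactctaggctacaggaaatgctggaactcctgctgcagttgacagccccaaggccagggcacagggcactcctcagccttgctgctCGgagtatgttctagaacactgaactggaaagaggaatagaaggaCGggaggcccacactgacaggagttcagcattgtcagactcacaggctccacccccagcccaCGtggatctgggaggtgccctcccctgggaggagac
It holds 3 CpG. Gjb5, a connexin of gap junctions in epithelia and trophoblast, gave 9.89, 10.01, 9.73 and 9.66 against 8.17, 7.94, 7.96 and 7.80 (-1.85 ± 0.10). Ly75, an endocytic receptor of dendritic cells and epithelia, changed by -1.71, and Jam2, a junctional adhesion molecule, by -1.26 with 4 further bright probe sets at -1.24 to -1.85. Tjp3, a scaffold of tight junctions, changed by -1.14, the Ly6 family gene Ly6g6e by -1.26 and Ptgfrn, a partner of tetraspanins, by -1.08. Of the 26 adhesion molecules with a Luc mean of 7 or more, 2 were members (7.69%), 6 were called lower and 8 higher. All such genes gave 1.59%, 26.0% and 15.5%.

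Membrane transport was represented by 8 members with a median change of -1.46. Slc37a1, a sugar-phosphate exchanger, gave 7.52, 7.46, 7.45 and 7.35 against 6.34, 5.58, 4.85 and 5.11 (-1.98 ± 0.30). Abca1, which exports cholesterol from cells, gave 9.38, 9.50, 9.06 and 9.17 against 7.51, 7.70, 7.67 and 7.54 (-1.67 ± 0.10). The nucleoside transporter genes Slc29a1 and Slc29a3 changed by -1.64 and -1.24. Slc7a1, the transporter of arginine and lysine, gave 11.24, 11.54, 11.73 and 11.81 against 9.74, 9.61, 10.60 and 10.55 (-1.46 ± 0.26). Atp1b1, the beta subunit of the sodium pump, gave 11.89, 11.79, 11.95 and 11.96 against 10.60, 10.73, 10.71 and 10.84 (-1.18 ± 0.06). The sodium pump subunit changed by -1.18 both in replicates 1 and 2 and in replicates 3 and 4, whereas the knock-down arrays of Slc7a1 had an SD of 0.52. Kdelr3, a receptor that returns proteins to the endoplasmic reticulum, changed by -1.46 and Slc66a2 by -1.11. The 114 solute carriers with a Luc mean of 7 or more included 5 members (4.39%), with 36 called lower and 25 higher (all such genes 1.59%, 26.0% and 15.5%).

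Genes of muscle, the cytoskeleton and cilia were 16 members with a median change of -1.40. Mymx, which encodes the small peptide that drives fusion of myoblasts, gave 12.97, 12.95, 12.95 and 12.94 in the Luc group and 10.77, 10.76, 10.54 and 10.64 after knock-down (-2.28 ± 0.05). Mylpf, a regulatory light chain of fast skeletal muscle myosin, gave 13.02, 13.08, 13.07 and 13.14 against 11.71, 11.86, 11.69 and 11.58 (-1.37 ± 0.06). Both probe sets were bright in these undifferentiated cells and had Luc SDs of 0.01 and 0.05. Probe sets differ in how brightly they report a transcript, so these signals do not rank the genes by RNA amount. Actn3, the alpha-actinin of fast fibres, changed by -1.35, Alpk3, a kinase of heart and skeletal muscle, by -1.45 and Fhod3, a formin of the sarcomere, by -1.29.

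Among actin and microtubule genes, Cobl, which nucleates actin filaments, gave 10.07, 10.20, 10.19 and 10.39 against 8.6, 8.41, 8.09 and 8.15 (-1.90 ± 0.12). Myo1f, an unconventional myosin of leukocytes, gave 8.66, 8.52, 9.09 and 8.98 against 7.41, 7.18, 6.79 and 6.70 (-1.79 ± 0.19), and a dimmer probe set of it changed by -2.57. Stmn3, a stathmin that destabilises microtubules, gave 10.26, 10.26, 9.72 and 9.83 against 8.12, 8.05, 8.39 and 8.50 (-1.76 ± 0.16). Myo1f fell further in replicates 3 and 4 (-2.29) than in replicates 1 and 2 (-1.29), and Stmn3 fell further in replicates 1 and 2. Tekt1, a filament protein of cilia and sperm tails, gave 7.79, 7.70, 7.59 and 7.29 against 6.65, 5.71, 5.77 and 5.30 (-1.74 ± 0.27). Its neighbour Smtnl2, related to a protein of smooth muscle, changed by -1.63. Mapt, the neuronal microtubule protein tau, changed by -1.43 and Krt42, a type I keratin, by -1.32. The remaining genes, Iffo2, Cyria, Frmd4a and Map10, changed by between -1.35 and -1.06. Of the 112 cytoskeleton and motor genes with a Luc mean of 7 or more, 22 were called lower, 34 higher and 4 were members (3.57%). All such genes gave 26.0%, 15.5% and 1.59%. In families whose shares are not printed, members made up from 0.0% (ribosomal proteins) to 6.45% (immunity and cell surface antigens) of such genes. Kinases and phosphatases (0.833%) and ubiquitin and proteasome genes (0.676%) lay below 1.59%, and secreted ligands and growth factors (5.71%) above it.

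Metabolic enzymes and binding proteins were 20 members with a median change of -1.26. Chac1, an enzyme that degrades glutathione and is induced in the stress response of Atf4, gave 9.39, 9.46, 9.92 and 9.88 against 6.57, 6.61, 9.21 and 8.97 (-1.82 ± 0.66). Knock-down replicates 1 and 2 were more than 2 log2 units below replicates 3 and 4. Tst, the sulfurtransferase rhodanese, gave 7.86, 7.99, 7.85 and 7.97 against 6.02, 5.84, 6.53 and 6.24 (-1.76 ± 0.14), and its neighbour and relative Mpst changed by -1.03. Both enzymes transfer sulfur from small molecules. Sod2, the mitochondrial superoxide dismutase, gave 14.32, 14.34, 14.40 and 14.48 against 13.42, 13.32, 13.38 and 13.27 (-1.04 ± 0.05). Sod2 had the highest Luc signal of all members, and a similarly bright probe set of it changed by -0.98. Other enzymes of redox balance were Nqo1 (-1.07), Gsta3 (-1.33) and the biliverdin reductase gene Blvra (-1.0).

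Lipid enzymes among these members were the phospholipase genes Pla1a (-1.61) and Pla2g10 (-1.56) and the sphingomyelinase gene Smpd2 (-1.23). The glycosyltransferase genes B3galnt1 and B4galnt4 changed by -1.55 and -1.36. In energy and amino acid metabolism, Qprt, an enzyme of NAD synthesis, changed by -1.41, Gys1, the glycogen synthase of muscle, by -1.39, Ak4, a mitochondrial adenylate kinase, by -1.28, and Gpt2, the mitochondrial alanine aminotransferase, by -1.18. Bdh2 (-1.13), Accsl (-1.17), the cytochrome oxidase subunit gene Cox7a1 (-1.07) and Crabp1 (-1.04), which binds retinoic acid, made up the rest.

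Nucleic acid sensing, repair, protein turnover and germ cell genes were 10 members with a median change of -1.27. Oas1a, an oligoadenylate synthetase that senses double-stranded RNA, gave 9.03, 9.24, 9.36 and 9.45 against 7.33, 7.35, 7.86 and 7.61 (-1.73 ± 0.14). Xaf1, also an interferon-induced gene, changed by -1.38, and Rnf135, a ubiquitin ligase of the RIG-I pathway, by -1.26. Hmces, which shields abasic sites in single-stranded DNA, gave 12.70, 12.88, 12.71 and 12.83 against 11.24, 11.16, 11.29 and 11.24 (-1.55 ± 0.05). Nfatc2ip, a protein with SUMO-like domains, gave 12.64, 12.64, 12.48 and 12.47 against 11.38, 11.41, 11.43 and 11.36 (-1.16 ± 0.05). Rdm1, a protein with an RNA recognition motif linked to DNA repair, gave 11.91, 12.15, 11.95 and 12.16 against 10.94, 10.82, 11.14 and 11.10 (-1.04 ± 0.09). Hmces, Nfatc2ip and Rdm1 were thus bright and tight, and they were apart on all arrays as the selection required. Tex14, which keeps germ cells joined by bridges, changed by -1.28, the deubiquitinase gene Otub2 by -1.39, the RNA-binding protein gene Mex3b by -1.07 and Serpinb6c, a serine protease inhibitor, by -1.25.

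No role was assigned to 20 members, Lrrc31 and Lrrc34 among them. Their median change was -1.19. The largest falls after these were those of 2310043M15Rik (-1.67), BC028528 (-1.60), Btbd11 (-1.49) and Spats1 (-1.37). Btbd11 had the smallest SD of any member over the knock-down arrays, 0.01, with values of 8.27, 8.26, 8.25 and 8.24. Pmel, the fibril protein of melanosomes, changed by -1.13, and Syngr1, a protein of synaptic vesicles, by -1.14. Ankrd35, Fam43a, Epdr1, Grtp1, Wdr31, Tdrp, Sec14l1, N4bp3, Tulp2, Znrd1as, Gm5617 and Gm17586 changed by between -1.29 and -1.01.

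**Figure D3:**
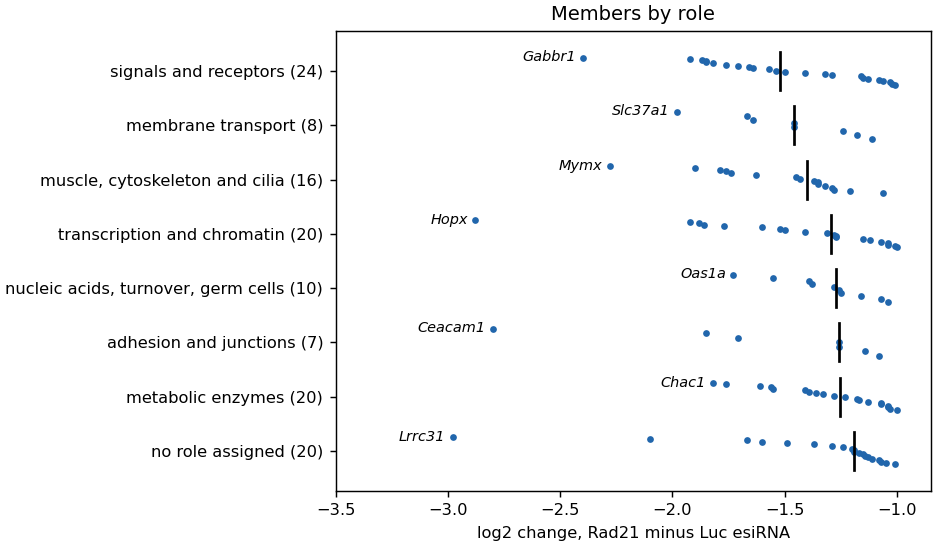
Log2 change (Rad21 minus Luc esiRNA, horizontal axis) of the 125 members by role, 1 point per gene, with a black line at the median of each role and the number of members in parentheses. The medians lie between -1.52 (signals and receptors) and -1.19 (no role assigned), and the ranges of all 8 roles overlap.

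The same genes could be compared with probe sets that the selection did not use, although these share the arrays and the contrast and are given as a description. A single probe set represented 63 members, and 62 members had 114 further ones. Of these 114, 91 were lower in the knock-down, 52 were called lower and 0 higher, beside 8.4% of all probe sets called lower. A change of -1 or less was found for 43 of them, beside 0.862% of all probe sets. Many were dim, with 51 Luc means under 4. Among the 33 with a Luc mean of 7 or more, 32 were called lower and 25 had a change of -1 or less, whereas 1 for Bcl2l11 missed the call at -1.24 ± 0.35. Weaker changes were seen for Sod2 (-0.65, Luc mean 9.83), Grtp1 (-0.71, Luc mean 9.28) and Smtnl2 (-0.84, Luc mean 8.2). Below a Luc mean of 7, a probe set of Syngr1 changed by only -0.05 (Luc mean 6.42), where the brightest gave -1.14. One of Lnx1 changed by -0.4 (Luc mean 6.65), where the brightest gave -1.54, and neither was called. The second bright probe set of Hopx changed by -2.20 and those of Stat6 and Stmn3 by -1.29 and -1.61.

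The depth of the fall was then compared between replicates 1 and 2 and replicates 3 and 4, the sets that the second principal component separated. This measure is the difference between the sets, which the selection of members did not use directly. The sets were recognised from the values of these arrays, so the p-values describe a known split and are not those of a planned factor. All 125 members were lower in both sets, an outcome that the rule without overlap fixed in advance. A change of -1 or less in both sets was found for 89. The median member changed by -1.44 in the first set (replicates 1 and 2) and by -1.26 in the second. The fall was deeper in replicates 1 and 2 for 80 members and in replicates 3 and 4 for 45. Among the 7713 other genes with a Luc mean of 7 or more, the signed change was compared, rises included. It was lower in replicates 1 and 2 for 4489 and in replicates 3 and 4 for 3224. Of these 7713 genes, 3688 were lower after knock-down in both sets. The interaction of group and replicate set, tested with limma over all 45037 probe sets, was called for 6 of 125 members (4.8%) beside 126 of 7838 genes with a Luc mean of 7 or more (1.61%), 1.03% of all genes and 0.777% of all probe sets. All 6 fell further in replicates 1 and 2, the replicates with the lower Rad21 signal. Of the 7713 other genes with a Luc mean of 7 or more, 120 were called. The signed change was lower in replicates 1 and 2 for 78 of these 120 and in replicates 3 and 4 for 42. The part of the Rad21 level in the difference between the sets was not tested.

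Hopx changed by -3.85 in replicates 1 and 2 and by -1.92 in replicates 3 and 4, a difference of 1.92 ± 0.08 (adjusted p = 0.0096). For Chac1 the changes were -2.84 and -0.81, a difference of 2.03 ± 0.11 (adjusted p = 0.0145). Hopx and Chac1 thus differed mainly on the knock-down arrays listed above. Egln3, whose changes were -2.36 and -0.47 (adjusted p = 0.0464), differed on the Luc arrays instead, which read 9.14, 9.36, 7.41 and 7.26 against knock-down arrays of 6.80, 6.99, 7.10 and 6.64. Ly6g6e (-1.78 and -0.75, adjusted p = 0.0464) and Tjp3 (-1.45 and -0.83, adjusted p = 0.0449) likewise had higher Luc values in replicates 1 and 2. Ly6g6e read 9.18, 9.12, 8.28 and 8.51 on the Luc arrays and 7.37, 7.36, 7.55 and 7.75 after knock-down. Tjp3 read 7.70, 7.67, 7.14 and 7.05 on the Luc arrays and 6.21, 6.25, 6.33 and 6.2 after knock-down. In Stmn3 (-2.18 and -1.33, adjusted p = 0.0295) both groups contributed. Hopx and Chac1 lost the call without Luc replicate 4 (adjusted p = 0.0555 and 0.0559) and kept it without each of the other arrays. None of the 6 calls held with the replicate number as a block (adjusted p = 0.116 to 0.121) or with a plain linear model (0.0982 for Hopx and 0.126 for Chac1). Egln3, Ly6g6e, Stmn3 and Tjp3 lost it whichever array was left out. All 7 members of the adhesion group fell further in replicates 1 and 2, with medians of -1.78 and -1.17, a difference called only for Ly6g6e and Tjp3.

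**Figure D4:**
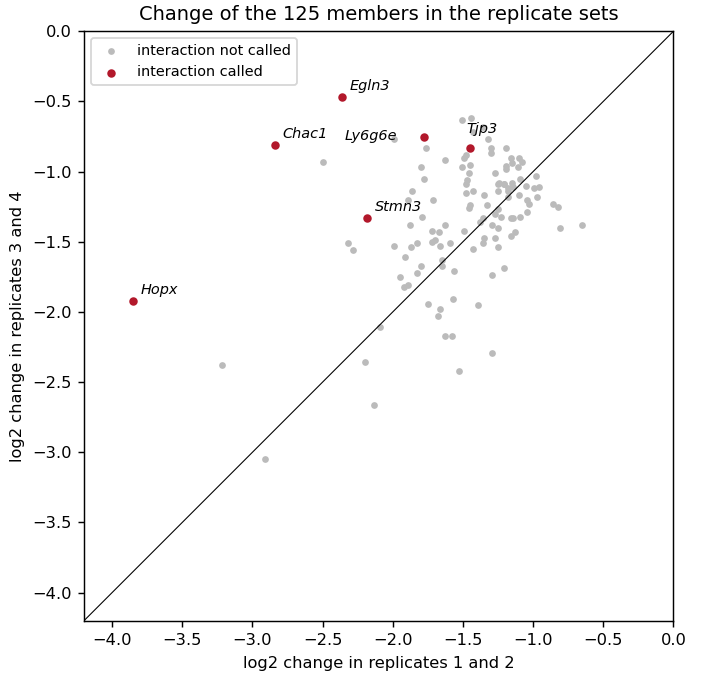
Log2 change (Rad21 minus Luc esiRNA) of the 125 members in replicates 1 and 2 (horizontal axis) against that in replicates 3 and 4 (vertical axis), 1 point per gene, with a line of equal change. Red points are the 6 members with a called interaction. All 6 lie above the line, where the fall was deeper in replicates 1 and 2. Every member lies below 0 on both axes, as the selection required.

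Genes next to the members were examined because the selection did not use position. In the order of RefSeq genes, 123 members could be placed among 18029 measured genes, and 235 other genes stood directly beside a member. Of these neighbours 65 were called lower (27.7%) and 14 higher (5.96%), beside 12.6% and 10.1% of all placed genes. Among 110 neighbours with a Luc mean of 7 or more, 54 were called lower (49.1%) and 10 higher (9.09%), beside 26.0% and 15.5%. The difference between these shares was not tested.

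Adjacent members formed 4 pairs. Xaf1, Tekt1 and Smtnl2 stood in a row on chromosome 11, with changes of -1.38, -1.74 and -1.63, between genes whose signal was at 2.92 (1700051A21Rik) and 2.38 (Ggt6). Mymx and the nucleoside transporter gene Slc29a1 were neighbours on chromosome 17, and Slc35b2 beside them fell by 0.40 (adjusted p = 0.0086). Tst and Mpst were neighbours on chromosome 15, where Kctd17 on the other side of Mpst kept its level (7.52 and 7.54, change 0.01 ± 0.08). The pairs ended at genes that were dim or changed less than the pair itself, which the thresholds for members largely fixed in advance. Several dimmer neighbours fell as well. Pde9a, a phosphodiesterase gene beside Slc37a1, went from 4.09 to 2.26 (-1.82, adjusted p = 5.96e-05). Septin1, beside Mylpf, went from 3.72 to 2.05 (-1.67, adjusted p = 0.00013) and Tmem106a, beside Rdm1, from 4.97 to 3.40 (-1.57, adjusted p = 0.00289). Next to Znrd1as, named as an antisense transcript, 2410137M14Rik went from 6.35 to 4.10 (-2.24, adjusted p = 7.52e-06). Sfrp1, a secreted Wnt antagonist left out by name, lies beside Zmat4 and changed by -1.86. Neighbours also rose, with 14 of the 235 called higher. The largest of these rises was that of Aldh1l1 beside Klf15, from 6.07 to 8.26 (2.2, adjusted p = 0.000159). Cd80, beside Pla1a, went from 4.08 to 5.95 (1.86, adjusted p = 0.00659). Fam107b, beside Frmd4a, rose by 0.98 (adjusted p = 0.0208). Chromosome 17 held 16 members of 400 genes with a Luc mean of 7 or more, chromosome 3 11 of 397, chromosome 7 14 of 547, chromosome 11 13 of 628 and the X chromosome 2 of 278, beside 1.59% over all such genes.

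**Figure D5:**
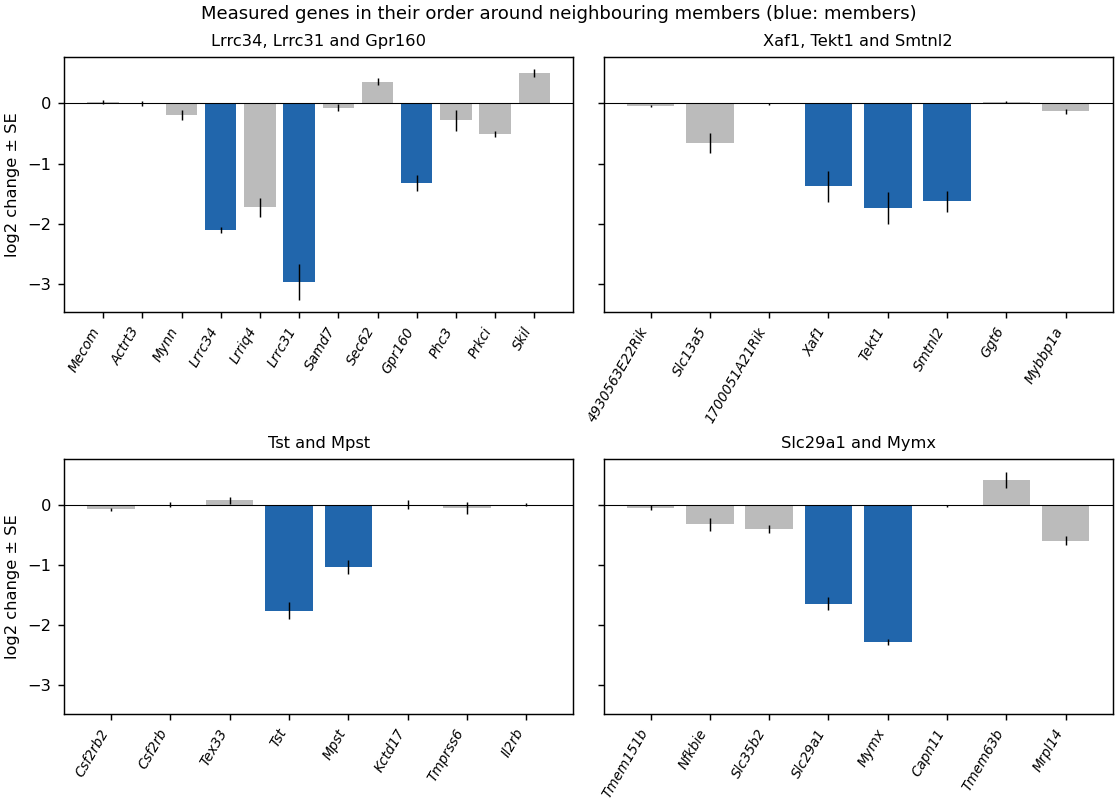
Log2 change (Rad21 minus Luc esiRNA, with SE) of measured genes in their order along the chromosome around neighbouring members, shown in blue. Grey bars are genes that are no members. The grey bars directly beside the members lie between -0.40 (Slc35b2) and 0.36 (Sec62), apart from Lrriq4 at -1.73.

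RefSeq promoters were used for 101 members, 6467 genes with a Luc mean of 7 or more and 14367 genes in all. The 250 bases before the start site were read. Genes without a promoter used here, whether or not RefSeq holds one, do not enter the shares of CpG and motifs. Where a gene had several starts, the one with the most CpG counted. The median number of CpG was 14 in the members, 18 in genes with a Luc mean of 7 or more and 14 in all genes. Fewer than 5 CpG were found before 15 of the 101 members (14.9%), beside 3.93% of genes with a Luc mean of 7 or more and 21.2% of all genes. These 15 were Ceacam1, Cox7a1, Epdr1, Gjb5, Gna15, Gsta3, Kndc1, Krt42, Lrrc31, Mia, Mylpf, Myo1f, Oas1a, Stmn3 and Tulp2. Seen from the other side, 254 genes with a Luc mean of 7 or more had fewer than 5 CpG, of which 15 (5.91%) were members, 68 (26.8%) were called lower and 57 (22.4%) higher. Of the 6213 with 5 or more CpG, 86 (1.38%) were members, 26.0% were called lower and 14.9% higher. The median change was -0.03 in the genes poor in CpG and -0.06 in the others, and the difference between these shares was not tested.

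Short motifs were searched on both strands of the same 250 bases. The composite site of Atf4, TGATGCAA, occurred before 4 members (3.96%), beside 0.649% of genes with a Luc mean of 7 or more and 0.745% of all genes. It is shown because the genes left out by name include Asns, Trib3, Psph and Nupr1, which belong to the amino acid response of Atf4, and Chac1 is a further gene of that response. The stretches of 60 bases around the match, from GRCm38.p6 and 5′ to 3′ on the strand of the gene, have the match in capitals, and in Chac1 and Crabp1 it is read on the other strand.
Chac1: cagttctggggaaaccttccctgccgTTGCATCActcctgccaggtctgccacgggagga
Crabp1: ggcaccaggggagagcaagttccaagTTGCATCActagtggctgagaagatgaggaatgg
Jdp2: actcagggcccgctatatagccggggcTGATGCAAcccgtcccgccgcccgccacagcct
Serpinb6c: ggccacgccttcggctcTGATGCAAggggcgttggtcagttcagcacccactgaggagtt
The stretches are chr2:119351023-119351082 (plus strand) for Chac1, chr9:54764588-54764647 (plus strand) for Crabp1, chr12:85599356-85599415 (plus strand) for Jdp2 and chr13:33905382-33905441 (minus strand) for Serpinb6c. The match began 193, 134, 33 and 233 bases before the start. Chac1 fell by 1.82, Jdp2 by 1.41, Serpinb6c by 1.25 and Crabp1 by 1.04, so the 4 members were spread over the range of the list. A match of letters is a description and no site of binding.

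The TATA box, TATAAA, occurred before 8.91% of members and 7.34% of genes with a Luc mean of 7 or more. The CCAAT box, CCAAT, occurred before 38.6% and 41.5%, the GC box, GGGCGG, before 64.4% and 67.5%, and the E-box, CACGTG, before 12.9% and 11.1%. The short site of estrogen-related receptors, AAGGTCA, which is part of the longer Esrrb site, was found before Ccnd3, Gjb5, Jdp2 and Stat6 (3.96%, beside 3.22%). The Klf site GGGTGTGGC was found before Hmces and Tjp3 (1.98%, beside 1.65%), the Tfcp2l1 site before Ankrd35, Slc29a1 and Sod2 (2.97%, beside 3.14%) and the octamer ATGCAAAT before Egln3 (0.99%, beside 1.35%). These letters were found before 0 members for the full Esrrb site TCAAGGTCA, the Stat site TTCCNGGAA, the T-box site AGGTGTGA, the Prdm14 site GGTCTCTAA and the cyclic AMP response element TGACGTCA, which occurred before 0.263%, 1.07%, 0.68%, 0.247% and 3.54% of genes with a Luc mean of 7 or more.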

How the data were processed

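RNA was measured on 8 Affymetrix mouse whole-genome arrays. The authors deposited log2 values from GCRMA, run in Partek 6.4 per the labels, which corrects background by probe GC content and normalizes all arrays together. A shift of all genes at once would thus not be seen, and dim probe sets lie on a low plateau. The study's methods name a parametric analysis of variance. Scanner files were not used here.

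After 64 control probe sets were left out, 45037 were tested with limma 3.58.1 (lmFit and eBayes, statmod 1.5.0; reading with data.table, version 1.17.8) in R 4.3.3, without a block or filter, two-sided, and adjusted by Benjamini-Hochberg over all of them. A single symbol was given for 34945 probe sets, several for 932 and none here for 9160, and 123 members matched RefSeq by Entrez ID. The labels call the arrays biological replicates and do not say how cultures were separated. The number of arrays limits the precision. The members, roles, families and motifs were chosen with earlier results of these data known, and roles after the values were seen. Every member could be named. Values on every array are given for the 25 largest falls, the 10 highest Luc signals and members with a called interaction, and other members singled out were chosen after their values were seen. The tests were tried on simulated data. Python 3.11.15, pandas 2.3.3, numpy 2.4.6 and matplotlib 3.10.9 were used for tables and plots. Alternatives were other thresholds, scalings, models and probe set rules, and leaving out each array.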

Additional observations from a re-analysis of the deposited data

Results flagged for a closer look

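The change differed between replicates 1 and 2 and replicates 3 and 4 by the limma interaction for 6 members. On the log2 scale the difference was 1.92 for Hopx (adjusted p = 0.0096), 2.03 for Chac1 (0.0145), 0.85 for Stmn3 (0.0295), 0.62 for Tjp3 (0.0449), 1.89 for Egln3 (0.0464) and 1.04 for Ly6g6e (0.0464), and all 6 fell further in replicates 1 and 2. None of the 6 was called with the replicate number as a block or with a plain linear model, and Stmn3, Tjp3, Egln3 and Ly6g6e lost the call whichever array was left out.

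In 11 of 250 groups of 4 arrays, 1 array stood apart from the other 3 by Dixon's criterion, where chance alone gives about 1 in 20 groups. Knock-down replicate 4 was that array 5 times. It was high for Mex3b (6.69, the others 5.91 to 5.97) and for Etv4 (5.85, the others 5.73). It was low for Gm17586 (5.70, the others 6.07 to 6.13), Jam2 (9.49, the others 9.65 to 9.68) and Lnx1 (6.05, the others 6.31 to 6.33). Myb was high on knock-down replicate 3 (5.89, the others 5.53 to 5.58) and Spats1 low on knock-down replicate 2 (6.71, the others 7.24 to 7.33). In the Luc group, Blvra was high on replicate 4 (8.0, the others 7.73 to 7.74), Hbegf high on replicate 2 (9.38, the others 9.17 to 9.21), Slc29a1 low on replicate 3 (8.38, the others 8.50 to 8.51) and Tulp2 high on replicate 3 (7.30, the others 7.07 to 7.11).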

How the results depend on the processing

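The number of members followed the thresholds, with 80 at a Luc minimum of 8, 245 at a change of -0.8 or less and 82 at -1.2 or less, and lay between 114 and 137 when each array was left out. The median change was -1.17 when a gene's probe sets were averaged, dim ones included, -1.44 in replicates 1 and 2 alone, and -1.35 to -1.30 without each array. Members called lower numbered 119 to 123 without each array and 118 with the plain analysis of variance of the methods, which called 5049 probe sets. At an adjusted p under 0.01, 3893 probe sets were called in place of 6697, and 5395 to 6210 without each array. The called interactions were the least stable result. They numbered 6, but 0 with a plain linear model, 0 with the replicate number as a block, 12 among probe sets with a mean of 4 or more, 1 at an adjusted p under 0.01, and 0 to 4 without each array. The cause was not tested. With the replicate sets as a block, 124 members were called lower, Chac1 included, and 8177 probe sets were called. With the replicate block, 120 members were called lower and 6224 probe sets were called, and same-numbered arrays correlated at 0.0215 to 0.133 in their deviations from the group means, so the number was not taken as a pairing, and not every array correlated best with its own number. No change of a member turned its direction under any alternative run. Where arrays were only left out or split into the replicate sets, the rule without overlap fixed that outcome in advance. In replicates 1 and 2 alone and in replicates 3 and 4 alone, fits chosen after the data were seen, 181 and 120 genes met the rule, and 117 and 94 of them were members.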
